A study of Mus musculus with 16 samples.

Results

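The 10 genes followed here encode proteins that the liver secretes into plasma in inflammation and were measured after emodin: the acid glycoprotein genes Orm1, Orm2 and Orm3, haptoglobin (Hp), hemopexin (Hpx), the inter-alpha-inhibitor heavy chain genes Itih3 and Itih4, the pentraxins Apcs and Crp, and ceruloplasmin (Cp). They were chosen by symbol, are 10 of the 27446 entries of the count table, and all 10 passed the filter on low counts that left 14308 entries to be tested. Liver RNA of wild-type (WT) C57BL/6 mice was sequenced in 16 libraries. The emodin group (8 livers) came from mice that were given emodin, an anthraquinone of rhubarb and related plants, into the stomach at 400 mg/kg for 3 weeks in a 0.5% solution of CMC-Na (sodium carboxymethyl cellulose). The vehicle group (8 livers) received that solution without emodin. All mice had 7 days to acclimate, carried no transgene or deletion that the labels name, and were killed after the last dose. The labels do not state age or sex, or that each library came from its own mouse, so the p-values measure the spread between these libraries. Each library is called a liver below, by its group and number (emodin 1, vehicle 1).

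In the acute phase response, cytokines of the interleukin-6 and interleukin-1 families reach hepatocytes and raise, through STAT3, C/EBP and NF-κB, the transcription of a set of plasma protein genes, while albumin mRNA usually falls. The acid glycoproteins are lipocalins that carry basic and neutral drugs and dampen inflammation, haptoglobin and hemopexin clear free hemoglobin and free heme, the inter-alpha-inhibitor heavy chains stabilise hyaluronan, the pentraxins recognise microbes and cell debris, and ceruloplasmin oxidises iron and carries copper. In mice the strongly induced pentraxin is serum amyloid P (Apcs), whereas in humans it is C-reactive protein (Crp).

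The genes lie in 3 small clusters and at 3 single sites of mm10 (GENCODE M21, all protein coding). Orm1 (chr4:63344560-63348163), Orm3 (chr4:63356162-63359511) and Orm2 (chr4:63362449-63365878) follow each other on the plus strand, each with 6 exons. Itih4 (chr14:30886476-30902353, plus strand, 23 exons in its principal transcript) and Itih3 (chr14:30908572-30923760, minus strand, 22 exons) end 6219 bases from each other. Crp (chr1:172698055-172833031, plus strand) and Apcs (chr1:172893961-172895041, minus strand), each with 2 exons in its principal transcript, are 60930 bases apart. Spans and distances here are those of whole genes, with all their transcripts, and exon counts are those of the principal transcript. Hp (chr8:109575128-109579172, minus strand, 5 exons), Hpx (chr7:105591613-105600137, minus strand, 10 exons) and Cp (chr3:19957054-20009145, plus strand, 19 exons) stand alone. Exons of Cp overlap those of Hps3, and reads in that overlap cannot be told apart unless strand was used in counting, which is not stated.

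Promoter sequences show how the neighbours differ before their start sites. The 250 bases upstream of the RefSeq start are given below for 2 pairs of neighbours, because the members of each pair had unlike levels or responses. They are RefSeq sequences of build GRCm38.p6, written 5′ to 3′ on the gene's own strand: Orm2 at chr4:63362199-63362448 (plus), Orm3 at chr4:63355908-63356157 (plus), Apcs at chr1:172895055-172895304 (minus) and Crp at chr1:172697806-172698055 (plus). Capitals mark matches to 4 motifs searched on both strands: STAT (TTCNNNGAA), C/EBP (TTGCNNAA), NF-κB (GGNNTTTCC) and the glucocorticoid receptor half-site (TGTTCT).
Orm2: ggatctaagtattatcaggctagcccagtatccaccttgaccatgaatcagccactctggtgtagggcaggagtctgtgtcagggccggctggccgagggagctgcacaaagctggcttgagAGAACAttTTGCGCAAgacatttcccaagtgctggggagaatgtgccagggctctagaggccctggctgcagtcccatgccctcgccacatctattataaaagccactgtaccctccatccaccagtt
Orm3: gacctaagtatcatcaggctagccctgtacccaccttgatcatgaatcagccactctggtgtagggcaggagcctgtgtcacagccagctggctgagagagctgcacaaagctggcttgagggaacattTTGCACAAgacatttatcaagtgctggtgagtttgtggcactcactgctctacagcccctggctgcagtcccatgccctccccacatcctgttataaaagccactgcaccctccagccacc
Apcs: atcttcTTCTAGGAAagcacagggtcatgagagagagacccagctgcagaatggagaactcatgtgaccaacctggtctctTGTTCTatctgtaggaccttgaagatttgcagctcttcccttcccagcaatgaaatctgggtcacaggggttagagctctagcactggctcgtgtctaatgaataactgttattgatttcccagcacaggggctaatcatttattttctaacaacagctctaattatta
Crp: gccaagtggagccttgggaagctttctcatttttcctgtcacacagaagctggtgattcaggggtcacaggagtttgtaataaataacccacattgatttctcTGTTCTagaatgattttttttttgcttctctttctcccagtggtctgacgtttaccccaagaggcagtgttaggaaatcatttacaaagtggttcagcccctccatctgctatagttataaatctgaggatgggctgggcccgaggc
Windows of 300 bases (250 before and 50 after the start) were searched, and 8 of the 10 genes had an entry, with 9 windows in all. Orm1 and Hp had none, so the promoter of Orm1 could not be set beside those of Orm2 and Orm3. A match is a description of letters, not a site shown to be bound. Among 32851 promoter windows of the same length, 8.30% held the STAT motif, 10.8% the C/EBP motif, 5.82% the NF-κB motif and 18.97% the half-site. Orm2 held a C/EBP match (TTGCGCAA, bases -120 to -113, where -1 is the base before the start) and a half-site on the minus strand (-128 to -123). Orm3 held the C/EBP match TTGCACAA at -121 to -114, and the upstream stretches of Orm2 and Orm3 were 85.5% identical. Apcs held the STAT match TTCTAGGAA (-244 to -236) and a half-site (-169 to -164), while Crp held only a half-site (-147 to -142). Hpx held a C/EBP match, TTGCTGAA at -200 to -193. Itih4 held the STAT match TTCCGAGAA at -51 to -43. Cp, with 2 start sites, held a half-site in 1 window and a C/EBP and an NF-κB match in the other. The window of Itih3 held none of the 4 motifs.

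Livers of emodin-dosed mice carried more mRNA for 8 of the 10 genes, from 1.72-fold for Itih4 to 17.8-fold for Orm2, and Crp and Cp did not pass the test (edgeR's quasi-likelihood test, Benjamini-Hochberg adjusted p under 0.05 over all entries tested). None was lower. Of all entries tested, 1102 (7.7%) were called higher and 782 (5.47%) lower. Without emodin 4 the higher calls over all entries numbered 709, and without emodin 2 the lower calls numbered 521. The median log2 fold change was 1.29 over the 10 genes and 0.01 over all entries tested. Only for Hp did all 8 emodin livers lie above every vehicle liver (1 of the 10 genes, against 0.937% of all entries tested). Together the 10 genes took 0.813 ± 0.0527% of the counts of vehicle livers (0.736% to 0.923%) and 1.93 ± 1.01% of those of emodin livers (0.876% to 3.59%, SD, n = 8 each). In bulk liver RNA a change in the number of cells of a type and a change in RNA per cell cannot be told apart.

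The livers held 28.3 to 48.2 M (mega) estimated counts, and levels are given as CPM (counts per mega of library counts, after TMM scaling). The 6 hepatocyte markers checked were Alb, Apoa1, Ttr, Cps1, Tat and Serpina1c. They summed to 94737 to 122059 CPM in vehicle livers and 54567 to 100346 CPM in emodin livers, with 1 of the 6 (Alb) called lower. Alb made up most of the sum, at a mean of 84492 CPM with vehicle and 59544 CPM with emodin. Alb is also among the genes known to fall in the acute phase. The libraries, labelled as liver, thus carried hepatocyte mRNA. T and B cell markers (6 of 6 tested, 0 called) summed to 3.66 to 11.4 CPM with vehicle and 1.99 to 4.97 CPM with emodin, and endothelial markers to 103 to 153 and 96.3 to 152 CPM, with Kdr called lower. No neutrophil (2 of 10 tested), Kupffer cell and macrophage (8 of 8 tested), stellate (5 of 5), biliary (4 of 4) or erythroid (5 of 5) marker was called. Their summed levels ran from 0.0621 to 4.06 CPM with vehicle and 0.515 to 4.75 CPM with emodin for neutrophils, from 121 to 540 and 183 to 524 CPM for macrophages, and from 4.20 to 8.54 and 2.91 to 22.5 CPM for biliary cells. Stellate markers summed to 161 to 363 and 134 to 251 CPM, and erythroid markers to 232 to 767 and 187 to 437 CPM. No marker of any list was at 0 in all livers. The biliary sum was highest in emodin 8 (22.5 CPM), followed by emodin 4, mostly from Sox9, and its part in the results was not tested.

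**Figure D1:**
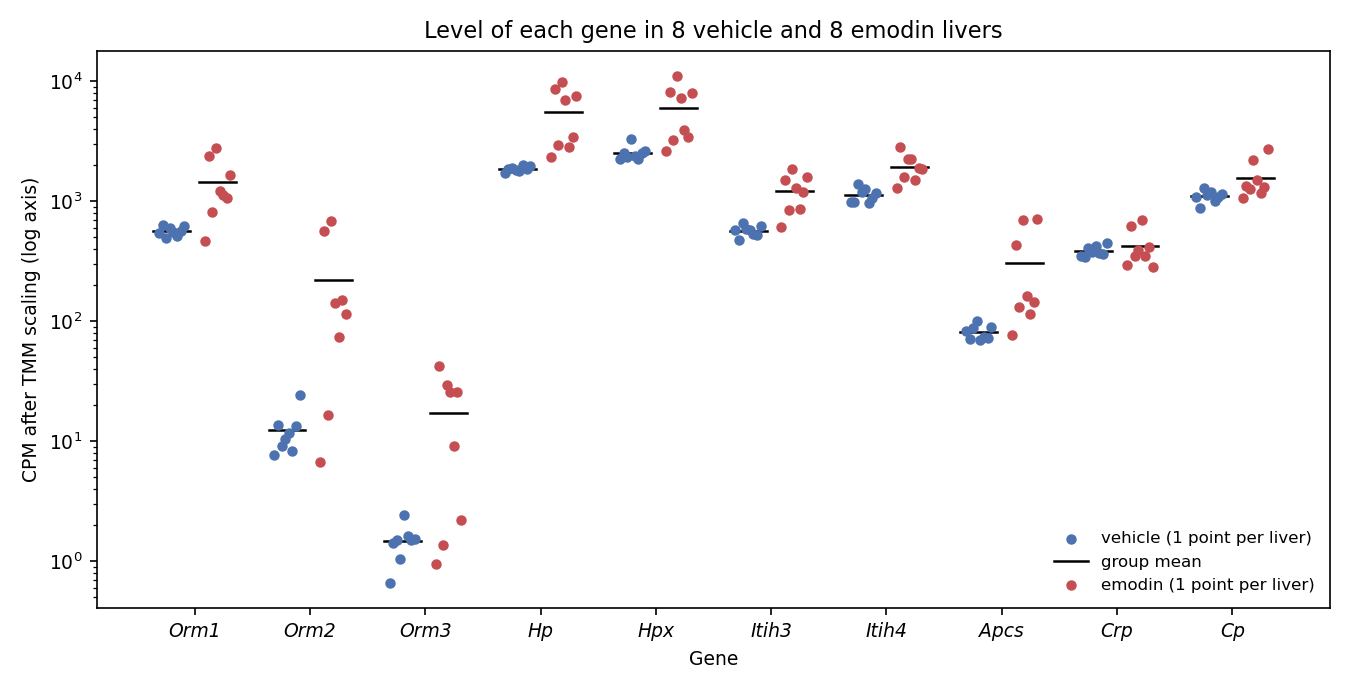
Level of each of the 10 genes in every liver, as CPM after TMM scaling on a log axis, with 1 point per vehicle (blue) or emodin (red) liver and the group means as black lines. The vehicle livers lie closer together than the emodin livers, and emodin 1 is the lowest emodin liver for 9 of the 10 genes.

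Orm1 encodes the main acid glycoprotein of the mouse liver. It was at 497 to 631 CPM in vehicle livers (median 559) and at 468, 2371, 807, 2801, 1220, 1117, 1056 and 1660 CPM in emodin livers 1 to 8. A total of 7 emodin livers were above every vehicle liver and emodin 1 was below all of them. The rise was 2.54-fold (log2 fold change 1.35 ± 0.27 SE, edgeR adjusted p = 0.00604). By an exact rank-sum test Orm1 was not called (adjusted p = 0.0695).

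Orm2 encodes a second acid glycoprotein, and its mRNA showed the largest fold rise of the 10 genes, the sixth of all 14308 entries tested. It was at 7.68 to 24.1 CPM in vehicle livers (median 11.0) and at 6.66, 561, 16.6, 685, 141, 73.6, 152 and 115 CPM in emodin livers 1 to 8. A total of 6 emodin livers exceeded every vehicle liver, emodin 3 fell within the vehicle range and emodin 1 below it. The rise was 17.8-fold (log2 4.15 ± 0.79 SE, edgeR adjusted p = 0.00538). The edgeR fold follows the mean levels of the groups, and the difference of their mean log2 levels was smaller, at 3.06. With weights for library quality, limma gave a difference of mean log2 levels of 2.28, which was not called (limma adjusted p = 0.0578). By an exact rank-sum test Orm2 was not called either (adjusted p = 0.0858).

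Orm3, the third gene of the cluster, was nearly silent in vehicle livers, at 0.665 to 2.42 CPM (median 1.51). In emodin livers 1 to 8 it was at 0.944, 42.0, 1.36, 29.3, 25.8, 9.19, 25.6 and 2.22 CPM. A total of 5 emodin livers were above the vehicle range and emodin 1, 3 and 8 were within it. Emodin 8 was the third highest liver for Orm1 but only the sixth for Orm3. The rise was 11.7-fold (log2 3.54 ± 0.73 SE, edgeR adjusted p = 0.00749). The difference of mean log2 levels was 2.54 without weights and 2.04 with quality weights. The call was lost with quality weights (limma adjusted p = 0.152) and in the rank-sum test (adjusted p = 0.212).

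The 3 acid glycoprotein mRNAs are alike, so reads may have been assigned to the wrong one. Over their transcripts, Orm1 and Orm2 were 91.0% identical, Orm1 and Orm3 86.1%, and Orm2 and Orm3 88.0%. Of all stretches of 50 bases, 21.8% of Orm2 and 3.59% of Orm3 occurred without mismatch in another Orm transcript. How shared reads were counted is not stated, which leaves the single levels of Orm1, Orm2 and Orm3 uncertain. Orm3 shares fewer stretches of 50 bases than Orm2, but its level was far below that of Orm1. Reads of Orm1 counted as Orm3 could therefore weigh on the level and fold rise of Orm3, and that was not tested. Summed into 1 entry, the 3 genes were at 579 ± 52.9 CPM in vehicle and 1673 ± 1052 CPM in emodin livers (SD, n = 8 each), a 2.88-fold rise (log2 1.53 ± 0.31 SE, edgeR adjusted p = 0.00605) with 7 of 8 emodin livers above all vehicle livers.

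The makeup of acid glycoprotein mRNA also differed. Orm1 made up 97.7 ± 0.748% of it in vehicle and 89.5 ± 7.42% in emodin livers, Orm2 2.09 ± 0.731% and 9.60 ± 6.94%, and Orm3 0.255 ± 0.0940% and 0.929 ± 0.776%. The Orm2 share was 19.5% in emodin 4 and 18.9% in emodin 2, against 1.40% in emodin 1 and at most 3.74% in a vehicle liver. As a log2 ratio within each liver (2 counts added to each gene), Orm2 over Orm1 was 1.91 higher with emodin, or 3.76-fold (exact two-sided permutation p = 0.00591, 0.00787 after Benjamini-Hochberg adjustment over the 4 ratios tested). A total of 6 of 8 emodin livers were above every vehicle liver. Reads misassigned between the 2 genes would enter this ratio, and that was not tested.

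The genes on either side of the cluster did not pass the test. Col27a1, which lies 9569 bases before Orm1, had a log2 fold change of -0.29 ± 0.35 SE (edgeR adjusted p = 0.614). Akna, 1247 bases after Orm2, had 0.79 ± 0.52 SE (adjusted p = 0.324).

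Hp and Hpx, whose proteins take up hemoglobin and heme released from broken red cells, were the most abundant of the 10 mRNAs per length. Hp was at 1728 to 2021 CPM in vehicle livers (median 1854) and at 2341, 8585, 2953, 9821, 6918, 2838, 3444 and 7558 CPM in emodin livers 1 to 8. The groups did not overlap. Hp rose 2.98-fold (log2 1.58 ± 0.27 SE, edgeR adjusted p = 0.00218). On the log2 scale its SD was 0.07 among vehicle livers and 0.83 among emodin livers.

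Hpx was at 2234 to 3272 CPM in vehicle livers (median 2463) and at 2603, 8059, 3252, 11042, 7240, 3914, 3462 and 7952 CPM in emodin livers 1 to 8. A total of 6 emodin livers were above every vehicle liver, and emodin 1 and 3 lay within a vehicle range whose top was set by vehicle 4. Hpx rose 2.35-fold (log2 1.24 ± 0.26 SE, edgeR adjusted p = 0.00691).

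On average, Hp was higher relative to Hpx in emodin livers than in vehicle livers. The log2 ratio of Hp to Hpx was 0.31 higher with emodin, or 1.24-fold (exact two-sided permutation p = 0.00497, adjusted over the 4 ratios 0.00787). As a linear ratio it ran from 0.557 to 0.905 in vehicle livers and from 0.725 to 1.07 in emodin livers, and 5 of 8 emodin livers were above every vehicle liver.

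The genes next to Hp and Hpx had mixed values. Txnl4b, 1077 bases from Hp, was lower with emodin (8.70 to 6.14 CPM, log2 -0.50 ± 0.11 SE, edgeR adjusted p = 0.0101). Dhodh, on the other side of Hp, was at log2 -0.04. Trim3, beside Hpx, rose slightly (6.83 to 8.81 CPM, log2 0.37 ± 0.10 SE, adjusted p = 0.0188).

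Among 15 genes that handle heme, hemoglobin, iron and copper, 1 was higher and 0 lower (7.7% and 5.47% of all entries), with a median log2 fold change of 0.10. Tfrc, the receptor that brings transferrin iron into cells, went from 18.3 ± 3.66 to 29.3 ± 7.28 CPM (log2 0.68 ± 0.15 SE, edgeR adjusted p = 0.00886). Hmox1, which breaks down heme, had a log2 fold change of 1.53 ± 0.49 SE (adjusted p = 0.0501) and passed the test when emodin 1, 3, 6 or 7 was left out (log2 1.64 to 1.68). With all livers it passed with DESeq2 (adjusted p = 0.0134) and with a stricter filter on low counts (edgeR adjusted p = 0.0391). Hmox1 was named after its values were seen. The same holds for Cd163, the macrophage receptor for haptoglobin bound to hemoglobin (log2 0.38, not called), and Lrp1, the receptor for hemopexin bound to heme (log2 0.10, not called). The copper transporter gene Atp7b, which loads ceruloplasmin, was at -0.30 and not called.

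Itih3 and Itih4 encode heavy chains of the inter-alpha-inhibitor family. The Itih3 protein is linked to bikunin, the product of Ambp, and can be passed on to hyaluronan, whereas Itih4 lacks the bikunin attachment. Itih3 was at 471 to 664 CPM in vehicle livers (median 576) and at 608, 1509, 838, 1854, 1277, 855, 1202 and 1587 CPM in emodin livers 1 to 8. A total of 7 emodin livers lay above the vehicle range and emodin 1 within it. Itih3 rose 2.14-fold (log2 1.096 ± 0.19 SE, edgeR adjusted p = 0.00178), the smallest adjusted p of the 10 genes.

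Itih4 was at 967 to 1382 CPM in vehicle livers (median 1113) and at 1283, 2843, 1604, 2267, 2257, 1494, 1883 and 1865 CPM in emodin livers 1 to 8. Again 7 emodin livers were above the vehicle range and emodin 1 was within it. Itih4 rose 1.72-fold (log2 0.79 ± 0.15 SE, edgeR adjusted p = 0.00324).

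The ratio of Itih4 to Itih3 was lower with emodin, by 0.26 on the log2 scale (fold 0.834, exact two-sided permutation p = 0.0326, also 0.0326 after adjustment over the 4 ratios). It ran from 1.73 to 2.17 in vehicle livers, and 3 emodin livers were below that range, with 1.22 in emodin 4, 1.57 in emodin 7 and 1.17 in emodin 8. The call was lost when any 1 of 8 livers was left out (vehicle 2, 3, 4, 5 or 7, or emodin 4, 7 or 8), with adjusted p from 0.0516 to 0.0687.

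Of the other inter-alpha-inhibitor genes, 0 of 4 tested were higher and 0 lower, beside 7.7% and 5.47% of all entries, with a median log2 fold change of 0.06, and Tnfaip6, the protein that moves heavy chains to hyaluronan, was too low to test. Ambp, which encodes bikunin, was at 1820 ± 96.4 CPM in vehicle and 2154 ± 299 CPM in emodin livers (log2 0.24 ± 0.09 SE, edgeR adjusted p = 0.0938), and it passed when emodin 1 was left out (log2 0.29, adjusted p = 0.0367) and with DESeq2 (adjusted p = 0.0277). Itih1, 5420 bases beyond Itih3 in the same cluster, had a log2 fold change of 0.16 ± 0.08 SE (adjusted p = 0.206). On the other flank Mustn1, a gene of low level in liver, went from 2.61 to 4.23 CPM (log2 0.70 ± 0.21 SE, adjusted p = 0.0345).

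The pentraxin neighbours had unlike values. Apcs, serum amyloid P, was at 70.0 to 101 CPM in vehicle livers (median 78.5) and at 76.3, 429, 130, 697, 162, 115, 146 and 710 CPM in emodin livers 1 to 8. A total of 7 emodin livers lay above the vehicle range and emodin 1 within it, and emodin 4 and 8 were far above the others except emodin 2. Apcs rose 3.79-fold (log2 1.92 ± 0.44 SE, edgeR adjusted p = 0.0121). The difference of mean log2 levels was 1.45 without weights. With quality weights, which are lowest for emodin 8 and 4, that difference was 0.98 and Apcs was still called.

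Crp was at 345 to 452 CPM in vehicle livers (median 375) and at 296, 624, 348, 391, 702, 347, 415 and 283 CPM in emodin livers 1 to 8. Only emodin 2 and 5 were above the vehicle range, and emodin 1 and 8 were below it. The log2 fold change was 0.14 ± 0.17 SE, with a 95% interval from -0.22 to 0.49 (edgeR adjusted p = 0.626). The promoter of Crp printed above held no STAT, C/EBP or NF-κB match, which says only that these letters are not in that window.

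Within a liver, Apcs over Crp was 1.39 higher on the log2 scale with emodin, or 2.61-fold (exact two-sided permutation p = 0.000777, adjusted over the 4 ratios 0.00311). The linear ratio ran from 0.165 to 0.265 in vehicle livers. In emodin livers it reached 1.78 in emodin 4 and 2.51 in emodin 8, stood at 0.688 in emodin 2, and was lowest in emodin 5 at 0.231. A total of 6 of 8 emodin livers were above every vehicle liver.

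**Figure D2:**
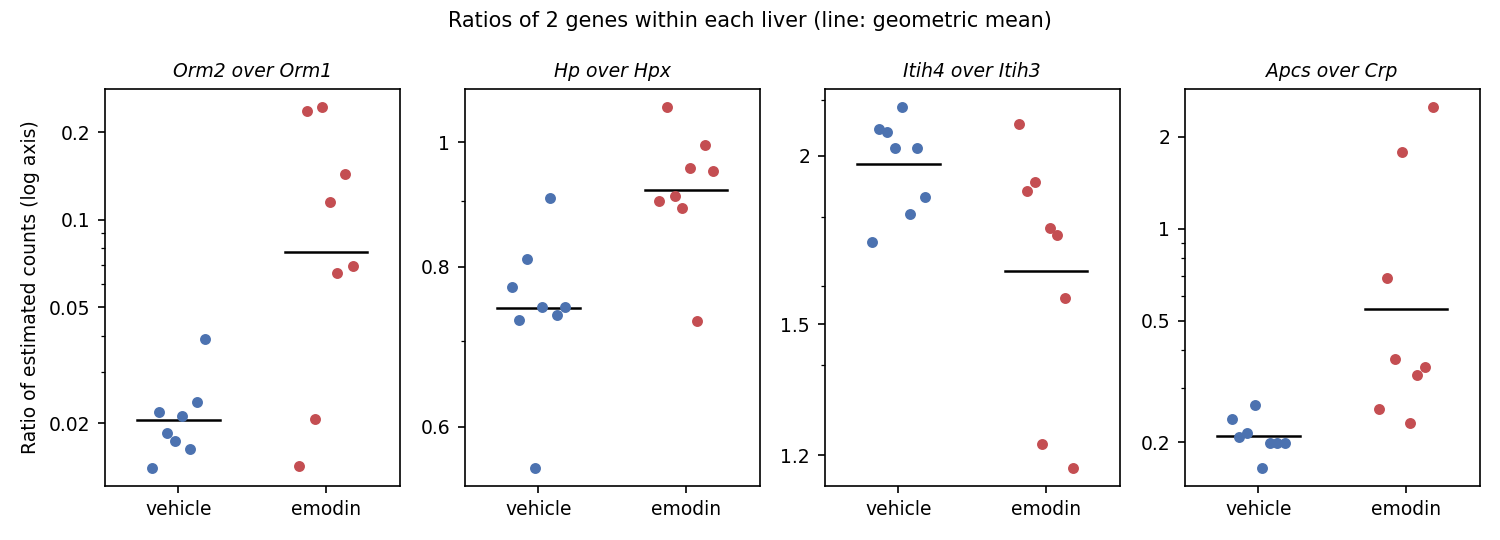
Ratio of 2 genes within each liver (Orm2 over Orm1, Hp over Hpx, Itih4 over Itih3 and Apcs over Crp) on log axes, with 1 point per vehicle or emodin liver and the geometric mean of each group as a line. Orm2 over Orm1, Hp over Hpx and Apcs over Crp lie higher in most emodin livers, and Itih4 over Itih3 is lowest in emodin 4 and 8.

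Cp, ceruloplasmin, was at 872 to 1282 CPM in vehicle livers (median 1098) and at 1060, 1328, 1260, 2216, 1508, 1178, 1320 and 2745 CPM in emodin livers 1 to 8. A total of 5 emodin livers were above the vehicle range and the other 3 were within it. The log2 fold change was 0.52 ± 0.18 SE, with a 95% interval from 0.15 to 0.89, and the gene was not called after adjustment (edgeR adjusted p = 0.0565). It was called with DESeq2 (log2 0.52, adjusted p = 0.0236) and with edgeR when emodin 1, 3, 6 or 7 was left out (log2 0.56 to 0.59, adjusted p from 0.0315 to 0.0489). Hltf, the next protein-coding gene after Cp that does not overlap it, had a log2 fold change of -0.09 (adjusted p = 0.661). The level of Hps3, whose exons overlap those of Cp, was not examined.

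The emodin livers fell in a similar order for most of the genes. Emodin 1 was lowest for 9 of the 10 genes, with levels from 0.541 (Orm2) to 1.26 (Hp) times the vehicle mean. Emodin 4 was highest for Orm1, Orm2, Hp, Hpx and Itih3, at 4.95, 55.7, 5.27, 4.38 and 3.26 times the vehicle mean. Emodin 2 was highest for Orm3 and Itih4, emodin 8 for Apcs and Cp, and emodin 5 for Crp. Emodin 8 was thus high for Apcs (8.73 times) and Cp (2.502 times), while its Orm3 was at 1.52 times and its Crp at 0.730 times the vehicle mean. The biliary marker sum was also highest in emodin 8 and 4, and the hepatocyte marker sum, mostly Alb, was lowest, at 54567 CPM, in emodin 4. Whether these have a part in the order was not tested.

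**Figure D3:**
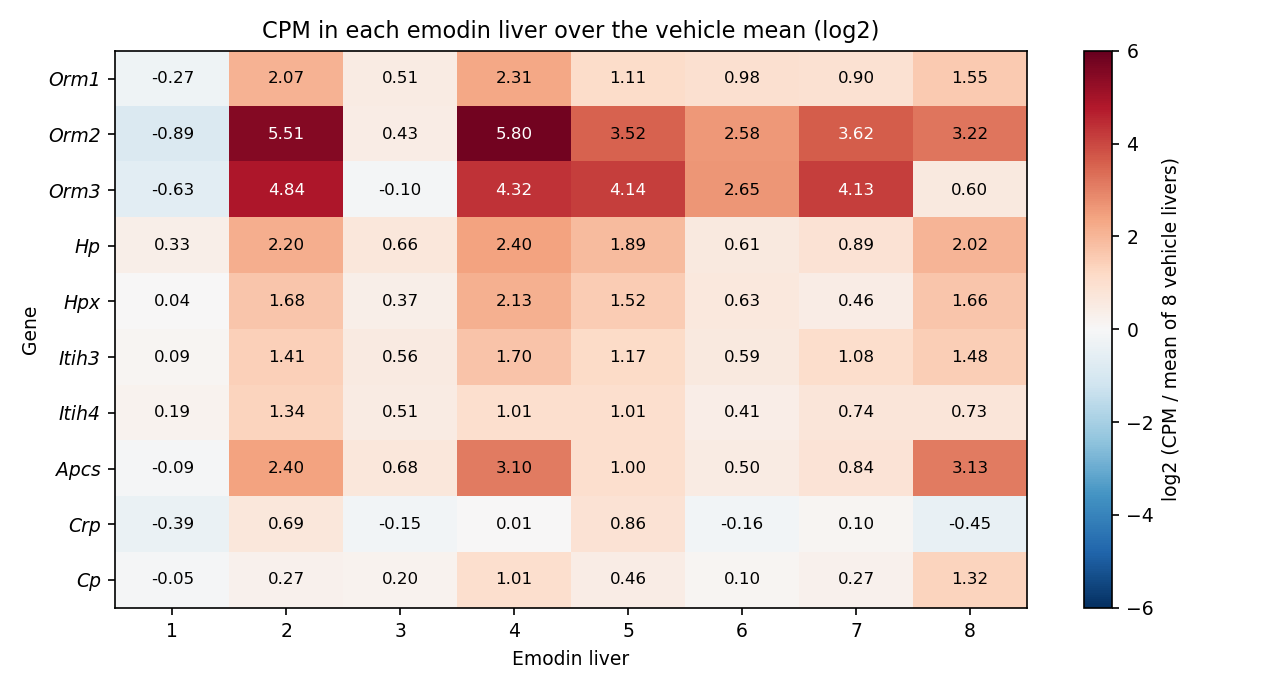
Level of each gene in each emodin liver over its mean in the vehicle livers, on a log2 colour scale (red above and blue below the vehicle mean) with the log2 value printed in each cell. The row of Orm2 spans the widest range, from below the vehicle mean in emodin 1 to 55.7 times in emodin 4, and the row of Crp holds its highest values in emodin 2 and 5 and its lowest in emodin 1 and 8.

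Per kilobase of exon, vehicle livers held most Hpx (1683 ± 223 CPM per kb), then Hp (1161 ± 58.6), Orm1 (729 ± 63.7), Itih4 (305 ± 40.4), Itih3 (156 ± 16.6), Cp (115 ± 12.9), Crp (113 ± 11.0), Apcs (83.7 ± 11.4), Orm2 (15.9 ± 6.80) and Orm3 (1.89 ± 0.648; SD, n = 8 each). Cp and Crp did not differ beyond their spread. In emodin livers Hpx (3963 ± 2031 CPM per kb) and Hp (3460 ± 1856) overlapped widely. The emodin means of Apcs (317 ± 274) and Orm2 (282 ± 332) passed those of Cp (165 ± 61.6) and Crp (124 ± 44.7), but within a wide spread between livers. With the length of the principal transcript, an alternative chosen after seeing the data, Hp led Hpx in emodin livers (4132 against 3963 CPM per kb), Cp (272) and Crp (229) passed Itih3 (190) in vehicle livers, and Cp (391) stayed above Apcs (317) and Orm2 (282) in emodin livers.

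Genes with a profile over the 16 livers nearest to that of each gene that rose at least 2-fold were sought among 10640 others, by the root mean square distance of log2 levels from the vehicle mean. Serpina3n, a protease inhibitor of the acute phase, was among the 3 nearest for Orm1 (0.302), Hp (0.297) and Itih3 (0.263). Orm2 was nearest to Saa1 (0.978), Mt2 (1.02) and Mt1 (1.03), and Orm3 to Isyna1 (0.887), Mt1 (0.932) and Mt2 (1.15). Ifitm3 (0.154), Apol9b (0.187) and Eppk1 (0.222) were nearest to Hpx, Apol9a (0.226) and Tor3a (0.262) to Hp, and Slfn9 (0.475), Lrg1 (0.492) and Tor3a (0.505) to Apcs. Cyb561 (0.298) and Prg4 (0.318) were nearest to Orm1, and Asap3 (0.267) and Tcirg1 (0.269) were near Itih3. These distances describe the same livers and carry no test.

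Of 18 other acute phase protein genes, 14 were higher and 0 lower (7.7% and 5.47% of all entries), with a median log2 fold change of 1.06. The 14 became 10 to 15 under the alternatives with all livers and 10 to 16 with 1 liver left out. Calls were lost most often for Cfb (11 left-out livers, 5 alternatives), Fgb (8 and 3), Hamp (7 and 3) and Saa3 (6 and 4). Saa4 (log2 1.37 ± 0.18 SE, edgeR adjusted p = 0.000283) and Serpina3n (1.37 ± 0.20 SE, adjusted p = 0.000538) had all 8 emodin livers above every vehicle liver, as Hp did. The same held for Mt1 and Mt2, which makes 4 of the 18 genes, against 0.937% of all entries tested. Mt2, a metallothionein that binds zinc and copper, was at 3.80 ± 0.62 SE (adjusted p = 0.00204), and Saa1, a serum amyloid A gene, at 5.29 ± 0.88 SE (adjusted p = 0.00235). Of 10 plasma protein genes known to fall in the acute phase, 0 were higher and 1 lower, against 7.7% and 5.47% of all entries. Alb was at -0.50 ± 0.15 SE (adjusted p = 0.0309), and that call was lost when vehicle 3, 4, 5 or 8 or emodin 2 or 5 was left out (adjusted p up to 0.0665). It was also lost with no filter on low counts (adjusted p = 0.0726) and with quantile normalization, which sets the most abundant entry equal in all livers.

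Of 17 receptors, kinases and transcription factors that control these genes, 5 were higher and 0 lower (7.7% and 5.47% of all entries), with a median log2 fold change of 0.14. Il1r1, the receptor of interleukin-1, went from 56.8 ± 10.6 to 133 ± 44.9 CPM (log2 1.23 ± 0.19 SE, edgeR adjusted p = 0.000882), with all 8 emodin livers above every vehicle liver. Socs3, the feedback inhibitor of interleukin-6 signalling, had a log2 fold change of 1.54 ± 0.29 SE (adjusted p = 0.00386). Tnfrsf1a, a receptor of tumour necrosis factor, was at 0.50 ± 0.11 SE (adjusted p = 0.00788), and Stat3, the transcription factor that interleukin-6 activates, at 0.60 ± 0.16 SE (adjusted p = 0.0216). The other called gene was Cebpd, which encodes a C/EBP factor (0.70 ± 0.19 SE, adjusted p = 0.0245). Stat3 and Cebpd each lost the call under 1 of the alternatives (adjusted p = 0.0739 and 0.0695). The subunits of the interleukin-6 receptor, Il6ra (log2 0.13) and Il6st (0.05), and Cebpb (0.48) were not called. Il1rap, the partner chain of Il1r1, had a log2 fold change of -0.36 ± 0.12 SE (edgeR adjusted p = 0.0567). It was called lower under 5 of the 10 alternatives with all livers (highest adjusted p 0.0418) and when emodin 1, 3 or 7 was left out.

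**Figure D4:**
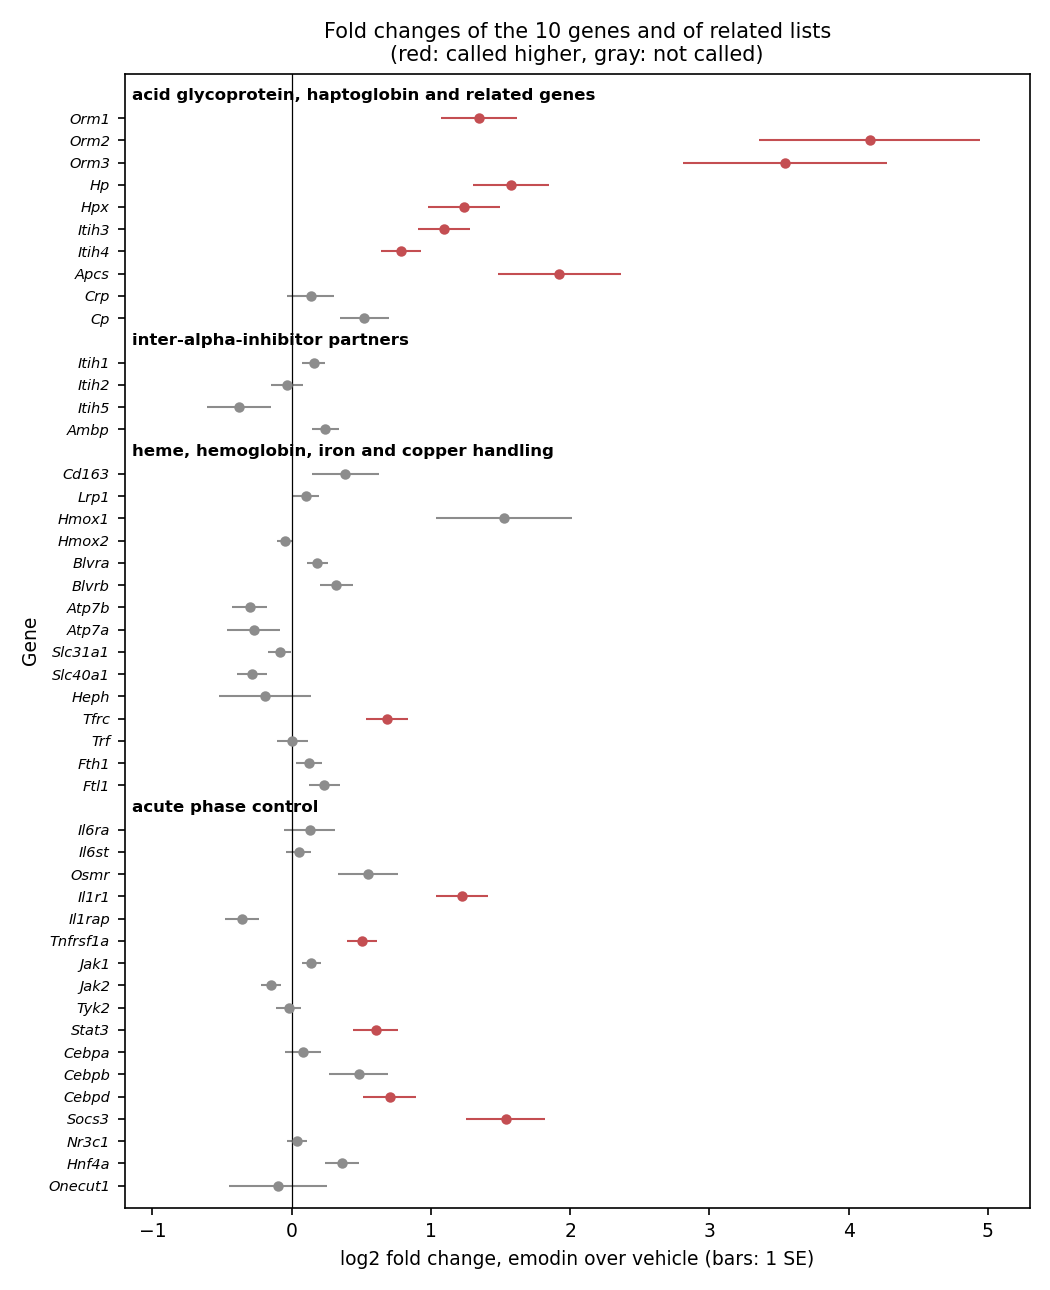
Log2 fold change (emodin over vehicle, edgeR) of the 10 genes and of the tested genes of 3 related lists, 1 point per gene with a bar of 1 SE to each side, red where called higher and gray where not called. Of the 10 genes 8 are red, against 0 of 4 inter-alpha-inhibitor partners, 1 of 15 heme, iron and copper genes and 5 of 17 genes of acute phase control.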

How the data were processed

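RNA of 16 mouse livers (8 vehicle, 8 emodin, grouped by the labels) was analysed from 1 deposited table of expected (estimated) counts per gene. The deposited file is named for FPKM, but its values are whole numbers (0 were not) that differ in total between columns, so the authors' values were taken as estimated counts. Rounding changed nothing. The submitters' processing notes list Cufflinks 2.2.1 and HTSeq 0.6.1, as well as HISAT2, cutadapt 1.9.1, SAMtools 0.1.19 and the genome build mm10. Their roles, the annotation, strand use and the handling of shared reads are not given in the sources used here.

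Of 27446 entries, 14308 passed filterByExpr and were fitted together with edgeR 4.0.16 in R 4.3.3 (TMM, robust dispersions, quasi-likelihood F test, with group alone in the model). Benjamini-Hochberg adjustment ran over all of them, and entries were called under 0.05. The SE was obtained from the fold change and the F statistic (size of the log2 value over the root of F). Depth was 28.3 to 48.2 M (mega) counts, with TMM factors from 0.929 to 1.16. No 2 libraries of the same group agreed within sampling noise (smallest chi-square per degree of freedom 16.8). The fits were tested on simulated data.

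Log2 ratios (2 counts added) were compared by exact two-sided permutation over 12870 assignments (smallest p 0.000155). The genes, lists, tests and ratios were chosen with earlier results of these data known. Named were the 10 genes, up to 4 called members per list by smallest p (otherwise 2 uncalled ones), the 3 genes of nearest profile with at least 2 CPM, and chromosome neighbours. List genes beyond these were named after their values were seen, and a few list genes were left out and are not reported here. Coordinates come from GENCODE M21 (10 of 10 gene IDs matched), promoters from RefSeq, compared with Biopython 1.88 in Python 3.11.15. Alternatives were limma 3.58.1, DESeq2 1.42.0, other scalings and filters, a rank-sum test, a replicate block and leaving out each liver.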

Additional observations from a re-analysis of the deposited data

Results flagged for a closer look

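Single livers stood apart from the other 7 of their group in 4 of the 28 groups of values looked at (20 of single genes and 8 of ratios), by the gap to the nearest liver relative to the range. Chance gives about 1 in 20. Vehicle 8 had 24.1 CPM of Orm2, against 13.8 CPM in the next liver. Vehicle 4 had 3272 CPM of Hpx, against 2619 CPM in the next. Its log2 ratio of Hp to Hpx was -0.84, against -0.46 in the next lowest vehicle liver. The same log2 ratio was -0.46 in emodin 6, against -0.17 in the next lowest emodin liver.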

How the results depend on the processing

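Of 10 alternatives beside left-out livers, the exact rank-sum test called 5 of the 10 genes higher in place of 8, and the others 6 to 9. With 1 liver left out, 8 or 9 were called, 0 lower, and none of the 8 calls was lost. Over all entries, 1102 higher calls became 709 to 1333 and 782 lower calls 521 to 903 with 1 liver left out. With the replicate number as a block, 628 were higher and 635 lower, Orm3 (log2 2.73, adjusted p = 0.0515), Apcs (1.45, 0.0533) and Alb (-0.53, 0.0657) were not called, and the lower ratio of Itih4 to Itih3 (-0.26) had an adjusted p of 0.0625. The labels do not say whether livers of the same number belong together. Same-number correlations of deviations ran from -0.15 to 0.25, and 2 of 8 vehicle livers correlated best with their own number. These values do not show a pairing and cannot exclude one. With 1 liver left out, the log2 ratios ranged from 1.68 to 2.26 (Orm2 over Orm1), 0.25 to 0.35 (Hp over Hpx), -0.31 to -0.19 (Itih4 over Itih3) and 1.07 to 1.56 (Apcs over Crp). The summed Orm genes stayed called in 18 of 18 settings added after seeing the data (each liver left out, the replicate block and quality weights). The rank-sum test, in which none of the single Orm genes was called, and the other alternatives were not run on the sum. The uncalled Crp value turned to -0.0032 without emodin 5 and to -0.014 with quality weights. A stricter filter left Orm3 out of the test. Low counts limit Orm3 most, at 0.665 CPM in its lowest liver.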
